A study of Mus musculus with 9 samples.

Results

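Tumours labelled KPC;TwistcKO were compared with tumours labelled KPC. The members were chosen by genotype label alone, which gave 6 tumours of the 9 in the series, 3 Twist cKO tumours (mouse numbers 4, 5 and 6) and 3 KPC tumours (mouse numbers 1, 2 and 3). KPC names a mouse strain that develops ductal pancreatic cancer, and both groups carry it, so the conditional loss of Twist is what the labels give as the difference. The other 3 tumours, labelled KPC;SnailcKO, entered the model only to share its estimate of the spread between tumours. The labels were followed where they give 3 mice per group and the design text 2. The design text places the loss of Twist in the pancreas, so cells of other origin in a tumour piece may keep the gene, and the sources used here do not give the Cre line, ages or strain background.

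Twist1 encodes a basic helix-loop-helix (bHLH) transcription factor that drives mesoderm formation in the embryo and the epithelial-to-mesenchymal transition (EMT), in which epithelial cells lose their junctions and become motile. It binds DNA as a dimer, often with an E protein, at sites called E-boxes. Id proteins lack a DNA-binding region and take E proteins out of such dimers. In pancreatic tumours Twist1 is known both from cancer cells and from the fibroblasts around them.

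Whole-tumour RNA was read on 1-colour Illumina mouse arrays, 1 per tumour, and all levels below are log2 intensities after background correction and quantile normalization. A difference is the Twist cKO mean minus the KPC mean on that scale, given with its standard error (SE). The SE uses the gene's spread pooled over the 3 groups, which limma draws toward a value common to all genes. For genes with a tight spread it is therefore larger than their own spread gives. A probe was called detected on an array when its detection p-value was under 0.05, and 41.66% to 43.3% of probes were detected on the 6 arrays. Of 11537 genes tested with limma, 0 passed a Benjamini-Hochberg adjusted p of 0.05 (0% of genes, smallest adjusted p 0.978), so every gene below is given as values and none as a change that passed the test. An unadjusted p under 0.05 was reached by 409 genes, 149 higher (1.29% of genes) and 260 lower (2.25%) in Twist cKO tumours. The 3 Twist cKO tumours all lay above the 3 KPC tumours for 345 genes (2.99%) and all below them for 585 (5.07%). The median difference over all genes was -0.07, and 43.7% of genes had a higher mean in Twist cKO tumours. With the authors' processed values this median was 0.22, a shift of 0.29, 68.5% of genes were higher, and the genes with an unadjusted p under 0.05 split into 342 higher and 61 lower. In bulk tumours, fewer cells of a type and less RNA per cell cannot be told apart.

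Twist cKO replicate 2 and KPC replicate 1 stood apart from the other tumours. Across genes, which are not independent replicates, the log2 intensities of Twist cKO replicate 2 correlated with those of the other 5 tumours at r = 0.776 to 0.829, those of KPC replicate 1 with the remaining 4 at 0.847 to 0.897, and those 4 among themselves at 0.925 to 0.955. The raw median signal also split the 9 arrays into 2 sets that no label names. It was 99.1 to 107.2 in set 1, which held the 3 KPC arrays and Twist cKO replicate 3, and 115.4 to 125.4 in set 2, which held Twist cKO replicates 1 and 2. Differences are therefore also given with the array set as an additive term in the model (the array-set block) where it matters.

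Twist1 itself had log2 intensities of 4.60, 4.67 and 5.23 in the Twist cKO tumours, against 9.19, 7.46 and 7.25 in the KPC tumours. The groups did not overlap, and the probe was detected in 1 Twist cKO tumour, replicate 3, against 3 KPC tumours. The difference was -3.13 (SE 0.95), with an unadjusted limma p of 0.00997 and an exact two-sided permutation p of 0.1, the smallest that 3 against 3 allows. It was -2.63 under the array-set block and -2.44 without Twist cKO replicate 2 and KPC replicate 1. Between Twist cKO and KPC tumours the Twist1 level thus went with the labels. The Snail cKO tumours were at 8.66, 4.65 and 7.56, with the probe detected in 2 of them. Snail cKO replicate 2 was thus as low as Twist cKO tumours. The sources used here do not say where the probe lies relative to the deleted part of the gene.

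**Figure D1:**
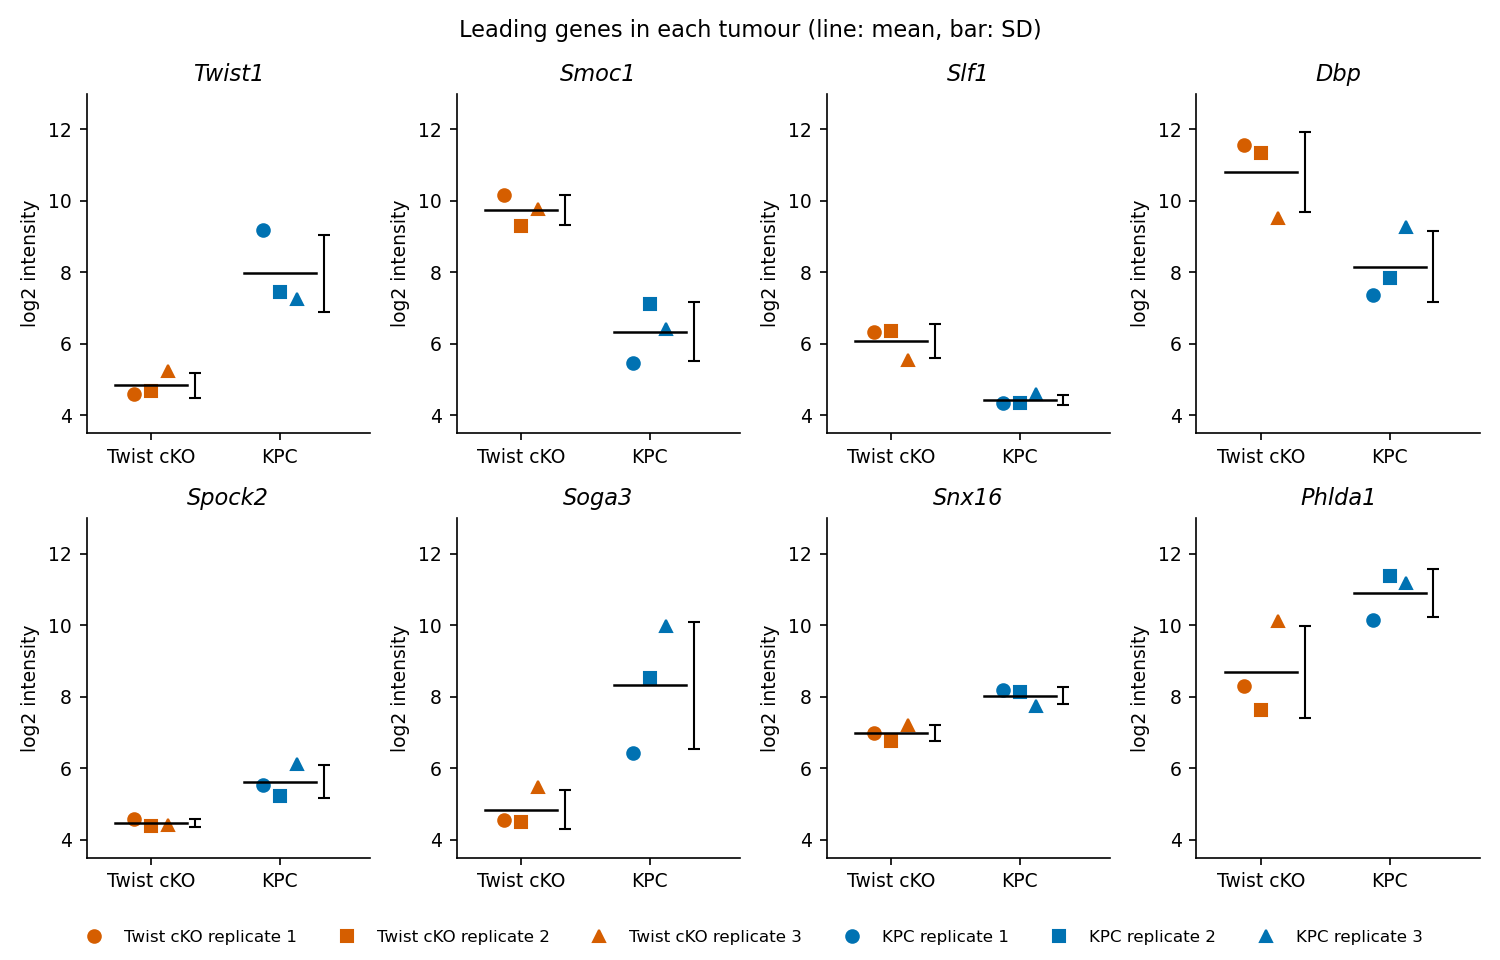
Log2 intensity (vertical axis) of 8 genes in the 3 Twist cKO tumours (orange, left) and the 3 KPC tumours (blue, right), with the group mean as a line and the SD as a bar. Twist1, Spock2, Soga3, Snx16 and Phlda1 lie lower and Smoc1, Slf1 and Dbp higher in all 3 Twist cKO tumours than in any KPC tumour.

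The list of Twist proteins, the bHLH proteins that pair with them and the Id inhibitors had 9 genes tested, Twist1 included, of which 3 had a higher mean (median -0.10, and 0.19 with the authors' processed values). An unadjusted p under 0.05 was reached by Twist1, the targeted gene, on the lower side and by Id2 on the higher. Together they are 22.2% of the 9, beside 2.25% of all genes on the lower side and 1.29% on the higher. Twist2, the close paralog, was at 4.93, 6.20 and 6.36 in Twist cKO tumours and 8.16, 5.28 and 5.16 in KPC tumours, so the groups overlapped (difference -0.37, SE 0.81). Id2, an inhibitor that sequesters E proteins, was at 9.08, 9.14 and 8.56 in Twist cKO tumours, against 7.57, 8.42 and 8.10 in KPC tumours. All 3 Twist cKO tumours were thus above all KPC tumours for Id2, by 0.90 on average (SE 0.31), while its other 2 probes gave 0.31 and 0.24. Of the E protein genes, Tcf12 differed by -0.59 (SE 0.35) and Tcf4 by -0.35 (SE 0.32), but by only -0.22 and -0.20 without KPC replicate 1. Tcf3 differed by 0.42 (SE 0.36), with -0.51 from a second probe, -0.01 under the array-set block, 0.17 without KPC replicate 1 and 0.27 without Twist cKO replicate 1.

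Among 12 other transcription factor genes of EMT, 9 had lower means, with a median of -0.54 (-0.04 under the array-set block). Foxc2, a forkhead factor of mesenchyme and vessels, was at 4.56, 4.70 and 5.21 in Twist cKO tumours and at 7.38, 6.31 and 5.32 in KPC tumours. It was detected in 1 Twist cKO and 3 KPC tumours and was the only gene of this list whose groups did not overlap (difference -1.51, SE 0.51, and -0.99 without KPC replicate 1). In Snail cKO tumours Foxc2 was at 5.38, 4.49 and 4.62, a mean of 4.83 beside 4.82 in Twist cKO tumours. Snai1 and Snai2, zinc finger repressors of epithelial genes, differed by -0.52 (SE 0.62) and -0.73 (SE 0.71), with overlapping groups. Snai1 was at 0.10 without Twist cKO replicate 2, and Snai2 at -0.16 without KPC replicate 1 and -0.22 without Twist cKO replicate 1. Zeb1 and Zeb2, repressors of the same junction genes, differed by -0.20 (SE 0.52) and -0.16 (SE 0.60).

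Genes that earlier work links to activation by Twist1 had lower means for 8 of 10 tested (median -0.54, and 0.01 under the array-set block), and none reached an unadjusted p of 0.05. Ccl2, a monocyte chemokine, was at -1.47 (SE 0.97), but at -0.48 without KPC replicate 1. Dnm3os, a long RNA that is the precursor of microRNAs, was at -1.42 (SE 0.62, and -0.56 under the array-set block). Dnm3os was at 7.00, 6.54 and 8.18 in Twist cKO tumours and at 9.30, 8.64 and 8.03 in KPC tumours, so that Twist cKO replicate 3 lay within the KPC range. Bmi1, a Polycomb gene, was at 0.60 (SE 0.44), at 0.11 under the array-set block and at 0.33 without Twist cKO replicate 1. Of 7 genes linked to repression by Twist1, 6 had lower means as well (median -0.32, and 0.05 with the authors' processed values). The E-cadherin gene Cdh1 differed by -0.24 (SE 1.44), with 11.09, 5.92 and 10.42 in Twist cKO tumours and 6.92, 10.52 and 10.72 in KPC tumours. Twist cKO replicate 2 and KPC replicate 1 were the low tumours here. The cell cycle inhibitor gene Cdkn2a was at 7.85, 5.13 and 8.07 in Twist cKO tumours, below the 9.56, 8.12 and 8.58 of KPC tumours (difference -1.74, SE 0.79, -0.79 without Twist cKO replicate 2, and -0.69 from the probe nearest 0).

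The genes with the smallest p-values lay outside the lists above. Smoc1, a SPARC family protein released into the matrix, was at 10.15, 9.31 and 9.76 in Twist cKO tumours, against 5.47, 7.11 and 6.41 in KPC tumours. The lowest Twist cKO tumour stood above the highest KPC tumour, and the 3 Snail cKO tumours lay at 7.03, 7.07 and 8.83. The difference was 3.41 (SE 0.58, a 10.6-fold ratio) and ran from 2.98 to 3.80 when each tumour was left out in turn. A second Smoc1 probe was detected on none of the 9 arrays. The other SPARC family members went the other way or overlapped. Spock2, a secreted proteoglycan, was at 4.59, 4.40 and 4.42 in Twist cKO tumours, where it was detected in none, and at 5.52, 5.22 and 6.13 in KPC tumours, where it was detected in all 3. That put it at least 1.57-fold lower in Twist cKO tumours. Snail cKO tumours, at 4.97, 4.39 and 4.91, also lay below all KPC tumours for Spock2. Spock3 was at -1.74 (SE 0.67, and -1.15 without KPC replicate 2) with overlapping groups, Sparc at -0.64 (SE 0.76) and Fstl1 at -0.64 (SE 0.70).

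Slf1, which brings the SMC5/6 complex to damaged DNA, was at 6.34, 6.36 and 5.54 in Twist cKO tumours and at 4.34, 4.33 and 4.59 in KPC tumours. Detection was in all 3 Twist cKO tumours and in 0 of the 6 KPC and Snail cKO tumours, at least 2.14-fold higher than in KPC tumours. Dbp, a transcription factor whose level follows the circadian clock, was at 11.56, 11.33 and 9.52 in Twist cKO tumours, against 7.37, 7.83 and 9.27 in KPC tumours. The groups were separate by the small step between Twist cKO replicate 3 and KPC replicate 3. Also among the 10 smallest p-values of higher genes were the histone genes described below, the channel kinase Trpm7 (1.21, SE 0.31), the leucine breakdown enzyme Ivd (1.19, SE 0.32) and the complement protease C1s1 (1.02, SE 0.27, and 0.56 from a second probe).

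On the lower side, Soga3 was at 4.55, 4.51 and 5.47 in Twist cKO tumours and at 6.44, 8.54 and 9.97 in KPC tumours (difference -3.47, SE 0.78). Its groups were far apart, with a wide spread within the KPC group. The endosome sorting gene Snx16 was at 6.99, 6.77 and 7.20 in Twist cKO tumours, against 8.19, 8.15 and 7.75 in KPC tumours, tight within both groups (difference -1.04, SE 0.24). Snord123, a small nucleolar RNA, differed by -1.56 (SE 0.35), and Nop58, a core protein of the particles that box C/D RNAs form, by -1.08 (SE 0.29). Atp6v0e2, part of the pump that acidifies endosomes and lysosomes, differed by -2.05 (SE 0.50). Of 22 proton pump and endosome sorting genes tested it and Snx16 were the 2 with an unadjusted p under 0.05 (9.09%, beside 2.25% of all genes on the lower side). Both are also among the 10 smallest p-values of lower genes. The list's median was -0.14 (0.17 with the authors' processed values). The others of the 10 smallest p-values were Adgra2, an adhesion receptor (-1.47, SE 0.36), Map9, a microtubule-associated protein (-1.10, SE 0.27), Mtrex, the helicase of the nuclear RNA exosome (-1.72, SE 0.46), and Ppp1r3b, which targets a phosphatase to glycogen (-1.04, SE 0.29). For all 10 the 2 groups did not overlap, beside 5.07% of all genes on the lower side. The 10 were picked by small p from the same values, so this adds no support. Snail cKO tumours also lay below all KPC tumours for Snx16 (7.12, 7.24 and 7.28) and Atp6v0e2 (6.07, 4.64 and 6.08). The same held for Adgra2 (5.80, 6.41 and 6.00).

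Detection in every tumour of 1 group and in none of the other was seen for 25 genes on the Twist cKO side (0.217% of genes) and for 40 on the KPC side (0.347%). Of the 8 with the largest difference on each side, the acute-phase gene Orm1 was at 5.52, 9.28 and 6.56 in Twist cKO tumours and at 4.97 or below in KPC tumours, at least 4.40-fold higher. Its highest value came from Twist cKO replicate 2, and its log2 difference of 2.34 was 1.26 without that tumour. Igfals, which stabilises circulating IGF, was at least 3.03-fold higher, Rab26, a small GTPase of secretory granules, at least 2.59-fold, Ly6k at least 2.17-fold, and the kallikrein Klk1 at least 2.07-fold. On the log2 scale Rab26 was at 1.75, but at 0.99 without Twist cKO replicate 2 and at 0.23 from a second probe, and Ly6k at 1.60, but at 0.90 without Twist cKO replicate 1. P3h2, a collagen prolyl hydroxylase, and Ralgds, an exchange factor for Ral, were at least 1.6-fold and 1.43-fold higher (for P3h2 a log2 difference of 0.90, and 0.54 without Twist cKO replicate 2). Among the genes detected in all 3 KPC tumours and in 0 Twist cKO tumours, Tm7sf3 was at 4.55, 4.68 and 4.43 in Twist cKO tumours and at 6.71, 6.56 and 6.62 in KPC tumours, at least 3.15-fold lower. Fgr, a Src-family kinase of myeloid cells, was at least 3.14-fold lower, and the adenosine receptor Adora3 at least 1.67-fold. Cpt1c, Afap1, Intu and Cfap20dc were at least 1.56-fold, 1.49-fold, 1.45-fold and 1.43-fold lower, but another probe gave only -0.22 for Afap1 and -0.29 for Intu on the log2 scale. Of these, Cpt1c, Afap1 and Intu were detected in 2 Snail cKO tumours, Tm7sf3, Fgr and Adora3 in 1 and Cfap20dc in 0.

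**Figure D2:**
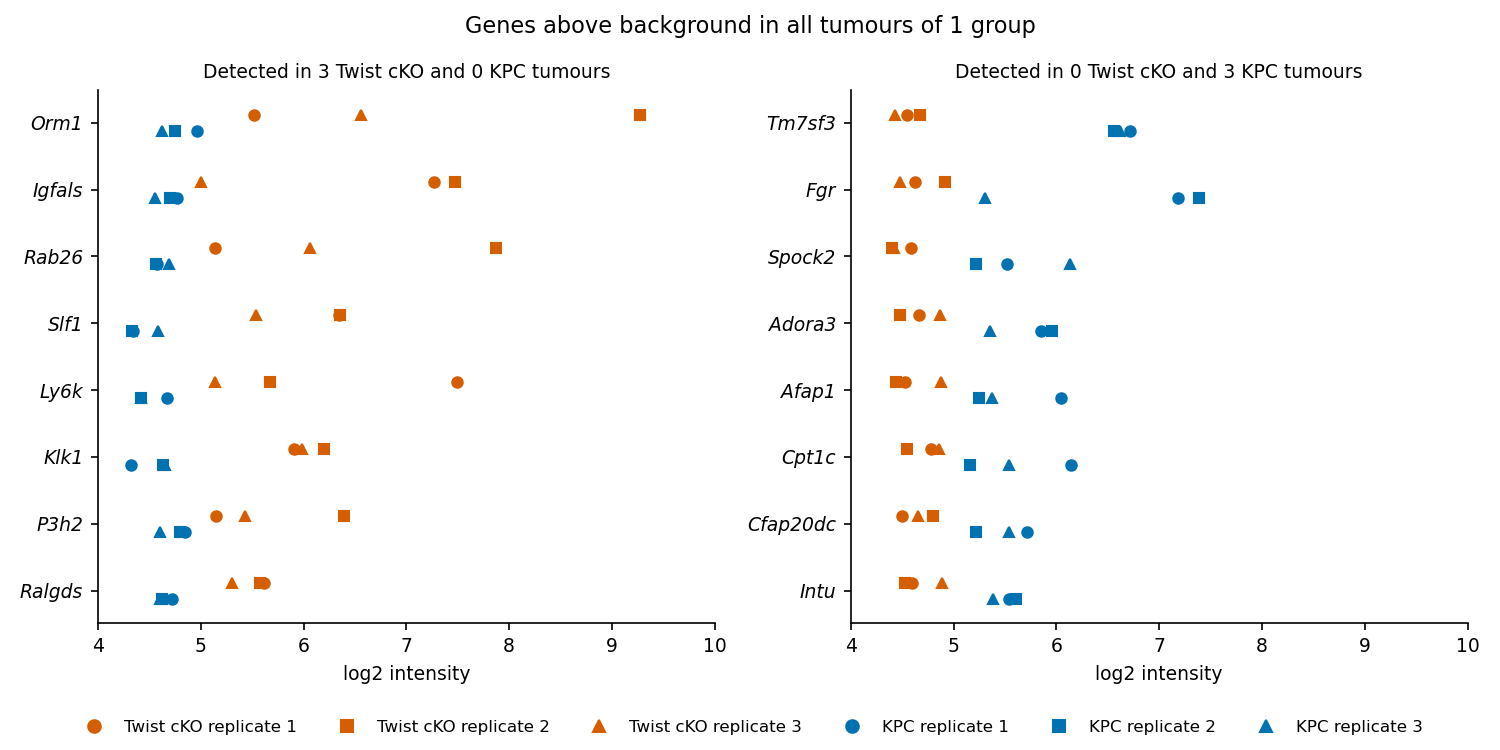
Log2 intensity (horizontal axis) of the 8 genes per side with the largest difference among those detected in all 3 tumours of 1 group and in 0 of the other, with Twist cKO tumours in orange above KPC tumours in blue. Tm7sf3 is tight in both groups, while Orm1 and Rab26 spread widely within the Twist cKO tumours.

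Rarres1, a retinoic acid response gene, was also among the widest gaps, with 6.52, 9.01 and 6.74 in Twist cKO tumours, against 5.62, 4.98 and 5.41 in KPC tumours (difference 2.08, SE 0.60, and 1.29 without Twist cKO replicate 2). Lrrc15, a surface protein of activated fibroblasts, was lower in all Twist cKO tumours (-2.68, SE 0.92), as were the guidance gene Sema5a (-2.57, SE 1.09), the calcium channel Trpv4 (-1.69, SE 0.47) and Vstm2b (-1.96, SE 0.67). Genes whose difference stayed largest when each tumour was left out and under the array-set block included the carboxypeptidase Cpm (2.49, SE 0.83, but 1.19 from a second probe and 0.46 within array set 1), the protease inhibitor Serpina1d (2.46, SE 0.76) and the proteasome subunit Psmd8 (2.98, SE 0.94). In the other direction they included Bpifb1, which was detected in 0 Twist cKO and 2 KPC tumours, at least 7.44-fold lower, and Ttc27, with the same counts, at least 6.24-fold lower (a log2 difference of -2.79, and -1.78 without KPC replicate 1). Thumpd1, an adaptor of tRNA acetylation, was at 10.02, 4.49 and 4.31 in Twist cKO tumours and at 9.20, 8.76 and 10.03 in KPC tumours. Twist cKO replicate 1 was thus as high as the KPC tumours, and replicates 2 and 3 were near background. Fcer1g, an Fc receptor chain of myeloid cells, did the same, with 10.44, 4.46 and 4.52 in Twist cKO tumours, against 12.20, 11.17 and 9.69 in KPC tumours.

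The replication-dependent histone genes had higher means in Twist cKO tumours for 42 of 44 tested, with a median of 0.69 beside -0.07 over all genes. Over the same 44 genes the Snail cKO tumours also lay above the KPC tumours, by a median of 0.41. These genes lie in clusters, are copied mainly while DNA replicates, and mostly give RNAs without a poly(A) tail. An unadjusted p under 0.05 was reached by 16 of the 44 on the higher side (36.4%, beside 1.29% of all genes) and by 0 on the lower, and 9 had groups that did not overlap (2.99% of all genes). The list was chosen with earlier results of these data known, so these counts are a description. Probes of such near-identical genes can read each other's RNA, so the 44 values are not independent and single genes are uncertain.

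H1f2, a linker histone, was at 13.60, 12.21 and 13.05 in Twist cKO tumours, against 11.16, 10.77 and 10.46 in KPC tumours (difference 2.15, SE 0.42). H4c8, a core histone gene, was at 10.18, 8.74 and 10.65 in Twist cKO tumours, against 7.66, 7.62 and 7.06 in KPC tumours (difference 2.41, SE 0.51). H2ac19 was at 10.79, 10.58 and 10.48 in Twist cKO tumours, against 9.15, 8.75 and 8.49 in KPC tumours (difference 1.82, SE 0.35). In these 3 genes every Twist cKO tumour was above every KPC tumour. H2ac18 (1.29, SE 0.28) is the fourth histone gene among the 10 smallest p-values of higher genes. By class, the median difference was 1.63 for 10 H2B genes, 1.12 for 11 H4 genes, 0.59 for 13 H2A genes and 0.54 for 8 H3 genes, of which 8, 5, 2 and 0 had an unadjusted p under 0.05. Of the 44 genes, 36 lie on chromosome 13 (median 0.72) and 8 on chromosome 3 (median 0.41). The 2 genes with lower means were H1f5 (-0.19, SE 0.32) and H2ac4 (-0.09, SE 0.48).

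The histone list's median, relative to each gene's mean over the 6 tumours, was 0.44, 0.11 and 0.78 in Twist cKO tumours and -0.04, -0.71 and -0.49 in KPC tumours, without overlap. The median difference was 0.86 under the array-set block, 1.17 without Twist cKO replicate 2 and KPC replicate 1, and 0.48 without KPC replicate 2. Of 18 cell cycle and DNA replication genes tested 17 had lower means, with a median of -0.40. Mcm2 and Mcm6, of the replicative helicase, were at -0.59 (SE 0.32) and -0.49 (SE 0.26), and the kinase gene Cdk1 at -0.56 (SE 0.38). Without KPC replicate 1 Mcm6 and Cdk1 were both at -0.31, and Cdk1 was at -0.26 without Twist cKO replicate 2. Their list stood at -0.37, -0.16 and 0.02 in Twist cKO tumours and at 0.79, -0.16 and 0.00 in KPC tumours, so KPC replicate 1 was the high tumour, and the median difference was -0.03 without it and Twist cKO replicate 2. Histone variants made outside replication had a median of 0.08 over 8 genes tested, with H2ax at 0.61 (SE 0.33, and 0.40 without KPC replicate 3) and H3f3b at -0.30 (SE 0.35). This variant list was chosen after values were seen.

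**Figure D3:**
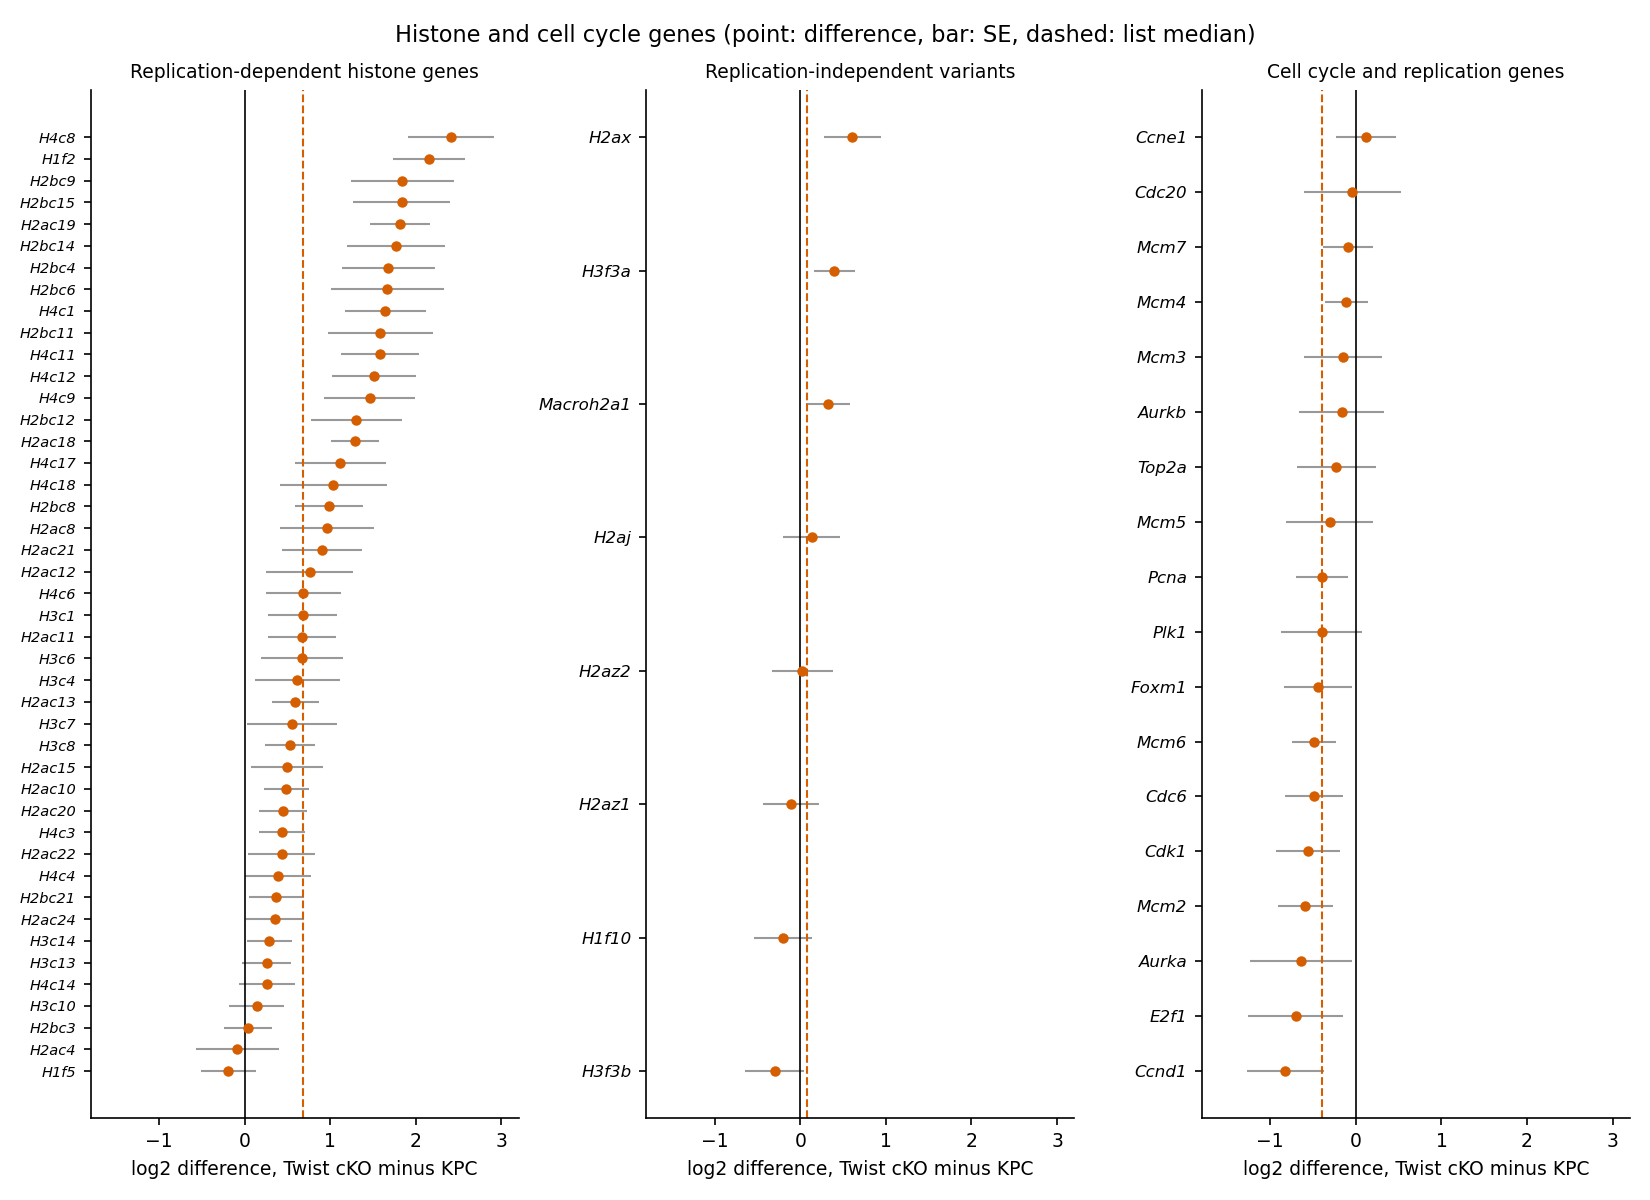
Log2 difference, Twist cKO minus KPC (horizontal axis), of 44 replication-dependent histone genes, 8 replication-independent variants and 18 cell cycle genes, with SE bars and the list median dashed. The histone points lie right of 0 for 42 of 44 genes and the cell cycle points left of it for 17 of 18.

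The start-site regions of a histone gene on each chromosome and of the leading genes Slf1 and Spock2 are shown because the first pair belongs to the list in which 42 of 44 means were higher and the second for genes detected in all tumours of 1 group and in 0 of the other. Sequences are RefSeq's on GRCm38.p6, 250 bases before to 50 after the start, 5′ to 3′ on the gene's strand. The deposited files name no build. In H1f2 (chr13:23738557-23738856, plus strand) and H2ac19 (chr3:96240325-96240624, minus strand) capitals mark CCAAT on either strand. In Spock2 (chr10:60106007-60106306, plus strand) and Slf1 (chr13:77135419-77135718, minus strand) capitals mark the E-box letters CANNTG where present.
H1f2: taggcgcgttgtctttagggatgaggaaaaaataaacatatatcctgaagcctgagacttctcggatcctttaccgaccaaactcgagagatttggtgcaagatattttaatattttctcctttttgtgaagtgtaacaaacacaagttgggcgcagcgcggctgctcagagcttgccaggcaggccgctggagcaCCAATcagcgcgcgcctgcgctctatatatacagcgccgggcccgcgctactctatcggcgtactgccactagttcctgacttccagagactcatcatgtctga
H2ac19: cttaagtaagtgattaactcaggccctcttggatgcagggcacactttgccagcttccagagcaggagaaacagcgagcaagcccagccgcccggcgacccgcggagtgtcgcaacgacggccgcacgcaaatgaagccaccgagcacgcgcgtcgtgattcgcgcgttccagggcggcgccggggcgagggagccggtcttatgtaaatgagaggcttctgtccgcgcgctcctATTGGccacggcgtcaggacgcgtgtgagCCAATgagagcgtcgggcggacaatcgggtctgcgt
Spock2: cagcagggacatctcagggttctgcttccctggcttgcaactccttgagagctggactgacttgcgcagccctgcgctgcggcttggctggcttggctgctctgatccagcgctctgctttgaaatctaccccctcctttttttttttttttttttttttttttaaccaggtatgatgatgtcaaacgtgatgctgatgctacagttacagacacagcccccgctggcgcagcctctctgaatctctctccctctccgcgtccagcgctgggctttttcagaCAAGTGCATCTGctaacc
Slf1: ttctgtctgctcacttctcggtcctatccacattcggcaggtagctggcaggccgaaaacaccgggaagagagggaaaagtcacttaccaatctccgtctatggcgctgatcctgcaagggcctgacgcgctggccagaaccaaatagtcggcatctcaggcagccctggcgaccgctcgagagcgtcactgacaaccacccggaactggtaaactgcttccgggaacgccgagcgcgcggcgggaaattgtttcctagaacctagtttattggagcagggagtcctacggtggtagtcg

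CCAAT, searched on both strands, was found in 32 of the 39 histone genes with a promoter in the table (82.1%) and in 37.9% of all 27025 promoters. TATAAA, likewise on both strands, was found in 23 of the 39 (59%) and in 14.2% of all promoters. The last base of CCAAT can be the first of TATAAA. H1f2 held 1 CCAAT and H2ac19 held 2, while H4c8 held 0. The E-box letters CANNTG, which read the same on both strands, were found in 10 of the 22 promoters available for the genes of smallest p or widest gap (45.5%), and in 9 of the 10 available for the tested genes linked to activation or repression by Twist1 (90%), against 72.1% of all promoters. Spock2 held 2, side by side, and Slf1 held 0. A match is a run of letters, not a shown binding site.

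Signalling through the kinase ERK induces phosphatases and ETS factors, which feed back on it or carry its output to genes. A list of ERK pathway feedback and target genes, drawn up after values were seen, had all 15 of its tested genes at lower Twist cKO means (median -0.79), 2 of them, Phlda1 and Dusp6, with an unadjusted p under 0.05 (13.3%, beside 2.25% of all genes). Some members, Phlda1 and Dusp6 among them, were already on another list when it was drawn up. Its counts are therefore a description and not a test. Phlda1 was at 8.29, 7.64 and 10.12 in Twist cKO tumours, against 10.14, 11.39 and 11.17 in KPC tumours (difference -2.21, SE 0.63). The ERK phosphatase gene Dusp6 was at 11.58, 11.37 and 12.27 in Twist cKO tumours and at 12.27, 12.88 and 13.08 in KPC tumours (difference -1.0, SE 0.44). Twist cKO replicate 3 was the highest of its group for both, level with the lowest KPC tumour. The ETS factors Etv5 and Etv4 were at -0.79 (SE 0.37) and -1.95 (SE 1.08), and both at -0.46 without Twist cKO replicate 2, and the immediate-early factor Egr1 at -0.73 (SE 0.33). The list's median was -0.02 within array set 1, which leaves Twist cKO replicate 3 as the only tumour of its group.

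Nucleoside transport and gemcitabine metabolism, the steps that take up, activate and inactivate a drug much used against this cancer, had lower means for 17 of 24 genes tested. The median was -0.15, and 0.15 with the authors' processed values. The uridine phosphorylase gene Upp1 was at 9.01, 8.43 and 9.67 in Twist cKO tumours, against 10.29, 10.69 and 9.76 in KPC tumours (difference -1.21, SE 0.47). Nme1, a nucleoside diphosphate kinase, was at 12.71, 12.66 and 12.55 in Twist cKO tumours, against 13.21, 13.17 and 13.11 in KPC tumours (difference -0.52, SE 0.21). In both genes all Twist cKO tumours lay below all KPC tumours. The 2 are the list's members with an unadjusted p under 0.05 (8.33%, beside 2.25% of all genes on the lower side). The uptake transporter Slc29a1 was at -0.03 (SE 0.43), the activating kinase Dck at -0.17 (SE 0.40), and the deaminase genes Cda and Dctd at 0.37 (SE 0.87) and -1.06 (SE 0.55, -0.67 without Twist cKO replicate 2 and -0.69 without KPC replicate 1). The ribonucleotide reductase genes Rrm1 and Rrm2 were at -0.13 (SE 0.24) and -0.43 (SE 0.37), and at 0.01 and -0.13 without KPC replicate 1, with Rrm2 at -0.20 without Twist cKO replicate 1. The efflux pump gene Abcc5 was at 8.53, 8.78 and 8.90 in Twist cKO tumours and 7.63, 8.44 and 8.34 in KPC tumours, higher in all Twist cKO tumours by 0.60 on average (SE 0.47), and by 0.34 without KPC replicate 1.

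Mesenchymal and invasion genes had lower means for 16 of 17 tested (median -0.64) and fibroblast and matrix genes for 17 of 20 (median -0.51), with 0 of either list at an unadjusted p under 0.05. The mesenchymal list stood at -0.12, -1.37 and 0.63 in Twist cKO tumours and at 0.79, 0.49 and -0.29 in KPC tumours. Its groups overlapped, and Twist cKO replicate 2 was lowest. Both medians came near 0 under the array-set block (0.01 and 0.06) and without Twist cKO replicate 2 and KPC replicate 1 (0.03 and 0.02). Cdh11, a cadherin of mesenchyme, was detected in 0 Twist cKO and 2 KPC tumours, at least 1.15-fold lower, and the chemokine Cxcl12 was at 2.00 (SE 1.16), but at 1.10 without Twist cKO replicate 2, at 1.09 without KPC replicate 3 and at 0.93 from the lowest of its 3 probes. Of 23 junction and keratin genes of epithelia 16 had lower means (median -0.27, but 0.19 under the array-set block), with the catenin gene Ctnnd1 at -0.98 (SE 0.78), but at -0.09 without Twist cKO replicate 2 and -0.08 under the array-set block. Their list was low in Twist cKO replicate 2 (-2.29) and KPC replicate 1 (-1.85) and between 0.39 and 1.60 in the other 4 tumours.

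**Figure D4:**
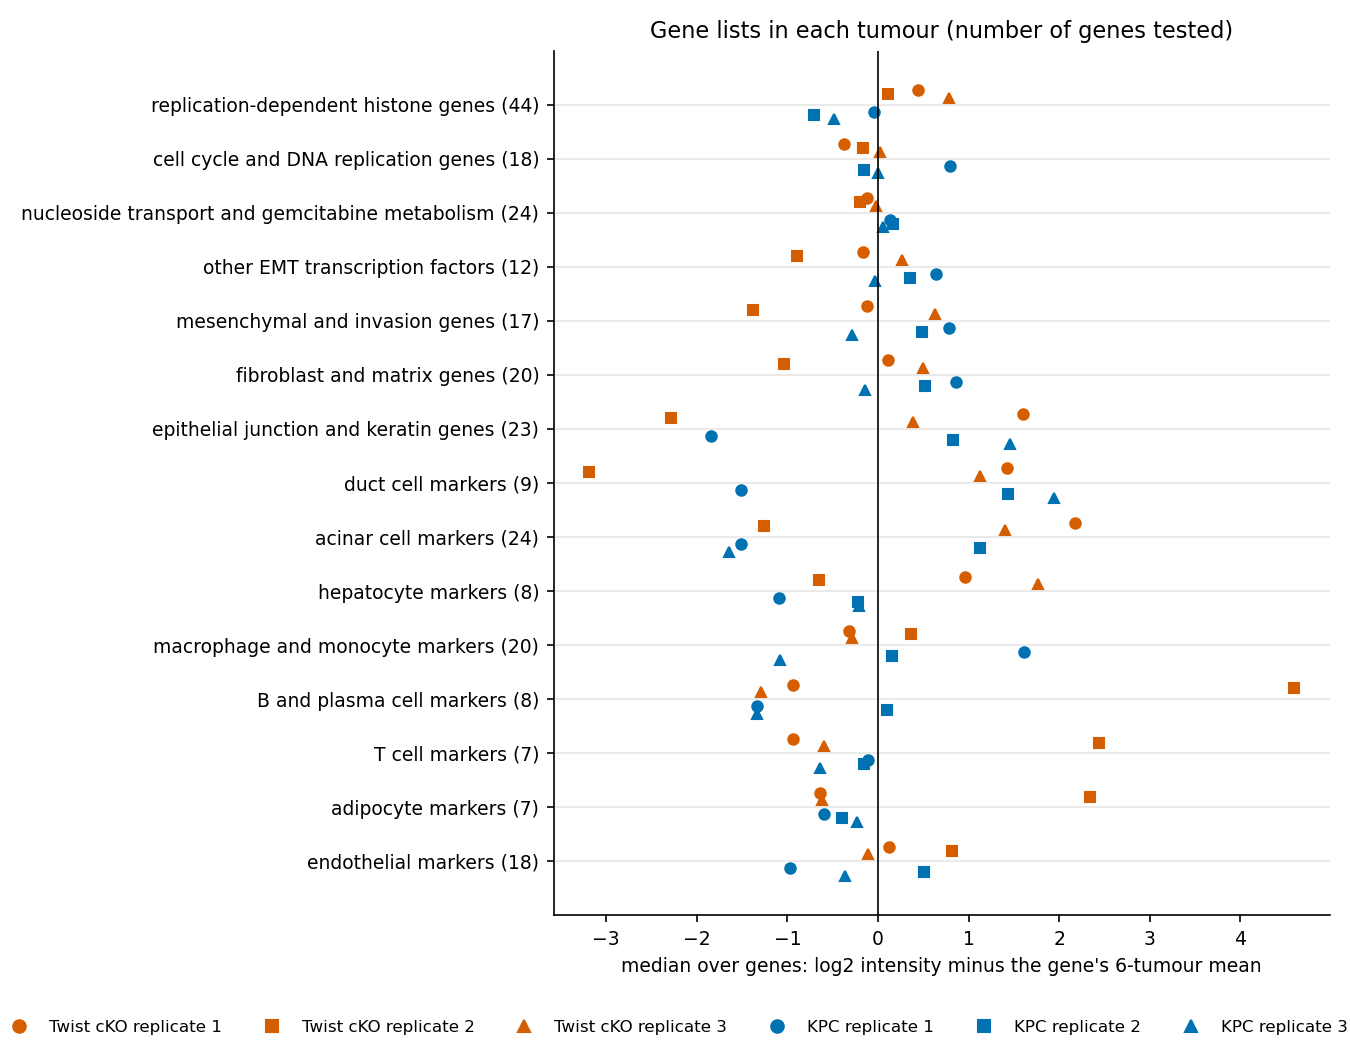
For each list and tumour, the median over the list's genes of the log2 intensity minus the gene's mean over the 6 tumours (horizontal axis), with Twist cKO tumours in orange above KPC tumours in blue. The histone medians of the groups do not overlap, while Twist cKO replicate 2 alone is high for B cell, T cell and adipocyte markers, and it and KPC replicate 1 are low for duct cell markers.

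Markers of other cells were high or low in single tumours. B and plasma cell markers stood at 4.60 in Twist cKO replicate 2, at -0.94 and -1.29 in the other 2 Twist cKO tumours and at -1.33, 0.10 and -1.34 in KPC tumours. T cell markers were at 2.44 and adipocyte markers at 2.35 in that tumour, and between -0.93 and -0.11 in the other 5. The adipocyte hormone gene Adipoq was at 12.96 there and at 4.79 and 4.77 in the other Twist cKO tumours, against 4.47, 4.78 and 7.20 in KPC tumours. Of the 20 macrophage and monocyte markers tested 15 had lower means (median -0.19, and 0.01 with the authors' processed values), and KPC replicate 1 was highest (1.61). Without it and Twist cKO replicate 2, 11 of the 20 had higher means (median 0.015). An unadjusted p under 0.05 was reached by 3 of the 20, Fcer1g, Fcgr1 and Cd163, all lower (15%, beside 2.25% of all genes). Fcgr1, a high-affinity Fc receptor, was at 4.52, 4.85 and 6.23 in Twist cKO tumours, against 8.00, 7.19 and 6.00 in KPC tumours (difference -1.86, SE 0.58), and the scavenger receptor Cd163 was at -2.09 (SE 0.86, and -1.09 without KPC replicate 1). Endothelial markers had higher means for 12 of 18 (median 0.51, and 0.13 under the array-set block), but for 6 of 18 without Twist cKO replicate 2 and KPC replicate 1 (median -0.09), with Pecam1 at 1.25 (SE 0.63, and 0.58 without Twist cKO replicate 2). Adgra2, the list's 1 member with an unadjusted p under 0.05 (5.56%, beside 2.25% of all genes), went the other way at -1.47 (SE 0.36).

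Acinar cells make the digestive enzymes of the pancreas, and their markers had higher means for 21 of 24 (median 1.34), with list medians of 2.18, -1.26 and 1.40 in Twist cKO tumours and -1.51, 1.12 and -1.65 in KPC tumours. Of the 24, 0 had an unadjusted p under 0.05, and 3 were detected in all 6 tumours. The Snail cKO tumours also lay above the KPC tumours on this list, by a median of 1.48. The amylase gene Amy2a5 was at 12.50, 11.13 and 11.50 in Twist cKO tumours and at 5.90, 11.24 and 7.15 in KPC tumours, so KPC replicate 2 lay within the Twist cKO range. Zg16, a zymogen granule protein, was at 8.87, 6.43 and 7.88 in Twist cKO tumours, above the 4.47, 5.78 and 4.71 of KPC tumours (difference 2.74, SE 2.15). Secreted proteins typical of liver had higher means for 7 of 8 (median 1.17), with overlapping list medians of 0.97, -0.65 and 1.77 in Twist cKO tumours and -1.09, -0.22 and -0.21 in KPC tumours. An unadjusted p under 0.05 was reached by 2 of the 8 on the higher side (25%, beside 1.29% of all genes), the fibrinogen gene Fga (1.75, SE 0.58, and 1.06 without Twist cKO replicate 3) and haptoglobin (Hp, 1.39, SE 0.55). Fga was detected in 3 Twist cKO tumours and in 1 KPC tumour. How far these cell mixtures take part in any gene's difference above was not tested.

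**Figure D5:**
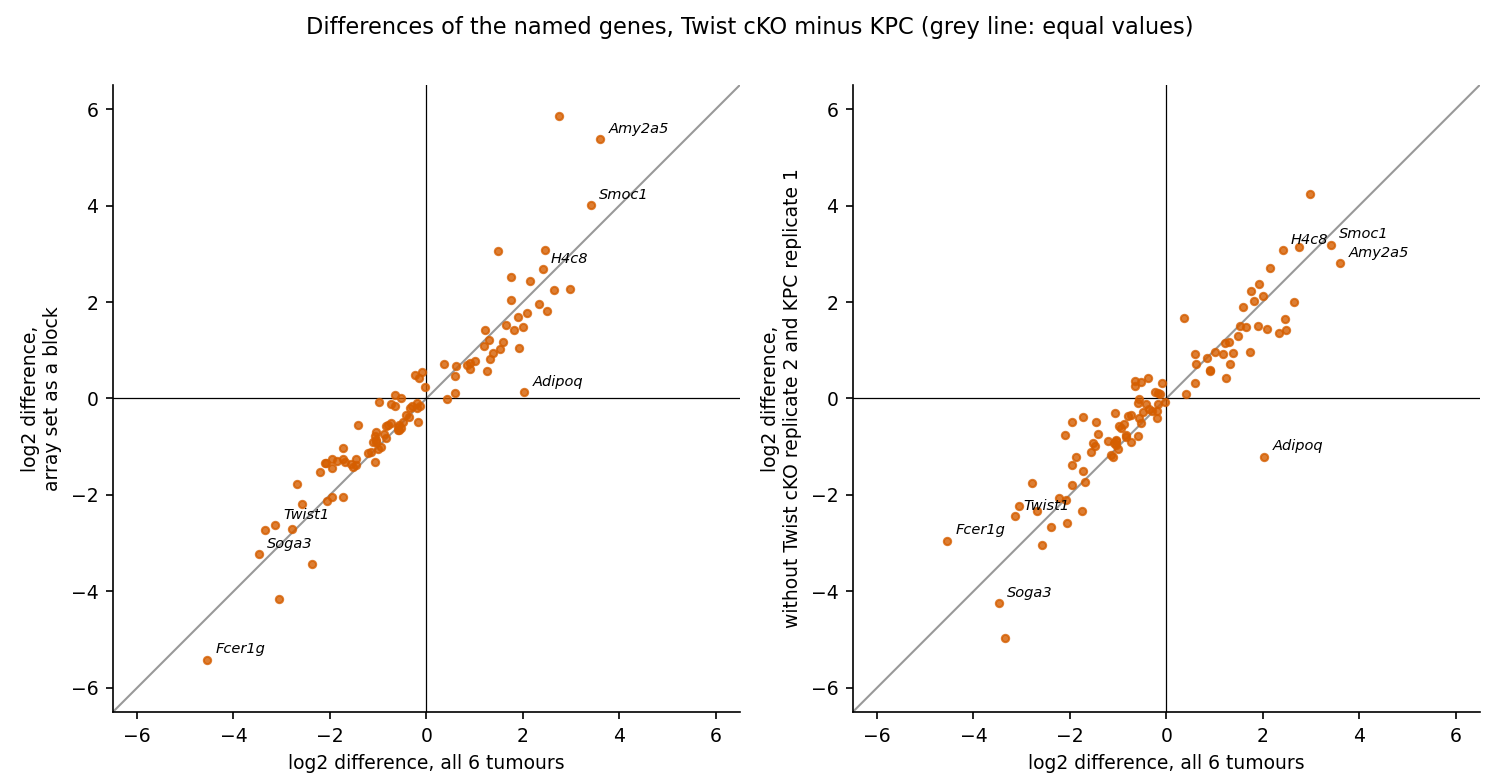
Log2 difference, Twist cKO minus KPC, of the named genes in all 6 tumours (horizontal axes) against that under the array-set block (left) and without Twist cKO replicate 2 and KPC replicate 1 (right), with a grey line of equal values. Smoc1 is at 4.01 and 3.19 on the vertical axes, while Adipoq, at 2.03 in all 6 tumours, is at 0.14 and -1.21.

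Clock genes were looked at after Dbp was seen. Tef, a factor of the same family as Dbp, was at 9.96, 9.57 and 8.28 in Twist cKO tumours, against 8.03, 7.10 and 8.13 in KPC tumours (difference 1.52, SE 0.46), with all Twist cKO tumours above all KPC tumours. The nuclear receptor gene Nr1d1 was at 9.16, 6.44 and 5.03 in Twist cKO tumours and at 5.39, 4.41 and 5.06 in KPC tumours, with overlap (difference 1.93, SE 0.91, and 0.79 without Twist cKO replicate 1). Noct, a phosphatase with a daily rhythm, was at 6.18, 7.67 and 5.94 in Twist cKO tumours, below the 9.48, 9.63 and 7.82 of KPC tumours (difference -2.38, SE 0.77, and -0.85 from a second probe). Over the 13 clock genes tested 10 had higher means (median 0.40, and 0.08 within array set 1), and the sources used here do not give the time of day at which tumours were taken. Of 12 handling stress genes, the heat shock gene Hspa1a was at 7.87, 8.20 and 7.18 in Twist cKO tumours, against 5.65, 7.02 and 6.61 in KPC tumours (difference 1.33, SE 0.44), with a list median of -0.19. Snail cKO tumours also lay above all KPC tumours for Hspa1a (7.55, 8.03 and 7.13) and for Tef (8.52, 8.32 and 8.39).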

How the data were processed

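RNA of each tumour was extracted with Trizol and made into biotin-labelled cRNA, per the labels' protocols. The authors deposited a linear bead intensity, neither background-corrected nor normalized judging from its values, and a detection p-value, per the file headers, on 45281 probes of every array. The submitters' processing notes name GenomeStudio 5.0. The authors also deposited a table of processed intensity values, linear in the bead intensity of the same array, of unstated method, used as an alternative. The log2 scale was taken here from the deposited intensities.

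Intensities went through limma's neqc (limma 3.58.1, R 4.3.3, offset 16, background from the detection p-values). Probes detected on 3 or more of the 9 arrays at a detection p-value under 0.05 were kept (20940), and each gene took its brightest probe with 1 symbol in the platform annotation, which gave 11537 genes. Group means over 9 arrays were fitted with lmFit and eBayes (6 residual and 2.57 prior degrees of freedom). Tests were two-sided, and p-values were adjusted over all genes by Benjamini-Hochberg. The p-values rest on the spread within the 3 groups of tumours, drawn by limma toward a value common to all genes. The number of arrays limits their precision. With only the 6 arrays of both groups in the model, 290 genes had an unadjusted limma p under 0.05, beside 409 in the reported fit. Bounds ("at least") compare the brighter group's mean with the higher of the probe's signal and the lowest detected signal per array. The fit was tested on simulated data. Summaries used Python 3.11.15 with pandas 2.3.3 and numpy 2.4.6.

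The rule for named genes took Twist1 and Twist2, the 10 smallest p-values, 8 widest gaps, 8 largest differences of detection in 3 against 0 tumours and 10 largest lasting differences in each direction, all members of 6 short lists and up to 5 members of the others by p. Predicted and clone names were not named. Which of these serve as examples, and Adipoq, Etv4, H1f5, H2ac4, Gdpd3, Glrx and Trim59, were chosen after their values were seen. Members and lists were chosen with earlier results of these data known. Lists of clock genes, histone variants and ERK targets were added after values were seen. Alternatives changed the background correction, normalization, detection filter, probe choice, array weights, array set and tumours included.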

Additional observations from a re-analysis of the deposited data

How the results depend on the processing

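No gene passed an adjusted p of 0.05 in limma in 17 of the 19 alternatives (0 genes, with 409 at an unadjusted p under 0.05 in the reported fit). Leaving out each tumour in turn gave 0 to 3 genes. The 3 came without Twist cKO replicate 1 and were lower in the remaining Twist cKO tumours, namely Thumpd1 (-4.93, adjusted p 0.0422), Gdpd3 (-3.50, 0.0422) and Fcer1g (-6.53, 0.0489). Gdpd3 was at 9.61 in the tumour left out, above the KPC tumours at 9.00, 9.15 and 8.37. The other Twist cKO tumours were at 5.53 and 5.16, and the difference with all tumours was -2.07. Taking every kept probe as its own feature, an alternative chosen after seeing the data, gave 1. The count at an unadjusted p under 0.05 was 166 under the array-set block, 152 within array set 1, 654 with array weights, 810 of 19057 genes with no detection filter, 723 of 20940 with every probe and 931 without Twist cKO replicate 3. The authors' processed values put 827 genes above and 177 below all KPC tumours, beside 345 and 585, and these values are linear in each array's bead intensity, with no quantile normalization added. Twist1 kept its sign throughout, at -3.49 to -2.52 when each tumour was left out, and at -1.62 with no background correction and -2.002 with an offset of 50. Of 101 named genes, 86 differed by more than 1 SE, and of these 83 kept their sign in every alternative run. Within array set 1, Ctnnd1 turned to 0.52, Rrm2 to 0.054 and Tcf3 to -0.023. Tcf3 turned also with the mean over all kept probes (-0.048) and under the array-set block (-0.006). The cause was not tested. All 15 others changed sign in at least 1 alternative. Without Twist cKO replicate 2 and KPC replicate 1, 30 of the 86 shrank by more than 1.5 times or turned, 31 within array set 1, 14 under the array-set block, 13 without KPC replicate 1, 12 without Twist cKO replicate 2 and 1 to 6 without each other tumour. No paired analysis was possible because the labels give each tumour a mouse number of its own. The block is estimated from replicates 1 and 2 against replicate 3 of the Twist cKO and Snail cKO groups, so the array set and single tumours cannot be told apart in it.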

Other observations

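Some genes had probes that went apart. A probe of Glrx, the gene of the redox enzyme glutaredoxin, was at 11.09, 11.25 and 10.66 in Twist cKO tumours and at 6.535, 7.398 and 6.597 in KPC tumours. It was the 1 probe of 20940 that passed (difference 4.16, SE 0.38, limma adjusted p 0.0407, higher in 3 of 3 Twist cKO tumours), in a fit added after seeing the data. The 3 Snail cKO tumours were high too, at 9.76, 10.06 and 10.88. The brighter Glrx probe, which stands for the gene in the comparison, was at 11.04, 10.98 and 10.56 in Twist cKO tumours and at 11.35, 11.72 and 10.78 in KPC tumours, a difference of -0.42 (SE 0.35).

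A probe of Trim59, which encodes a tripartite motif protein, was at 4.44, 4.50 and 4.99 in Twist cKO tumours and at 7.97, 7.15 and 7.58 in KPC tumours (difference -2.92, SE 0.32, limma adjusted p 0.0892). It was at 7.50, 8.09 and 7.46 in Snail cKO tumours, so the Twist cKO tumours were the low ones. The other Trim59 probe differed by -0.56 (SE 0.38). A probe of the replication helicase gene Mcm6 was at 4.47, 4.62 and 4.42 in Twist cKO tumours, detected in none, and at 9.90, 8.82 and 9.91 in KPC tumours. Snail cKO replicate 1 was as low, at 4.42, while Snail cKO replicates 2 and 3 were at 8.87 and 8.81. The 2 other detected Mcm6 probes differed by -0.49 (SE 0.26) and -0.58 (SE 0.27) between Twist cKO and KPC tumours. What sets these probes apart was not tested.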
